A study of Mus musculus with 32 samples.

Results

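The genes described are 9 genes of sulfide oxidation and cysteine catabolism, *Sqor*, *Ethe1*, *Tst*, *Mpst*, *Suox*, *Cbs*, *Cth*, *Cdo1*, and *Mocos*, out of the 34453 rows of the table. They were picked by symbol after *Sqor* and *Mocos* had been seen to be higher with Nrf2 in these libraries, so their values in Nrf2 and control eyes are a description. For that contrast no *P* value of theirs is given, and passing or not passing the threshold of the fit across all genes (adjusted *P* of 0.05) is stated only to describe them. Each of the 9 symbols matched 1 Ensembl row, and all 9 passed the filter on low counts in every comparison.

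RNA was sequenced from the retinal pigment epithelium (RPE), the pigmented cell layer behind the photoreceptors, of mice labelled *rd1*, a strain whose rods degenerate early because of a mutation in *Pde6b*. One eye of each mouse had received a subretinal injection of adeno-associated virus (AAV) carrying Nrf2, as the human cDNA, under the Best1 promoter, together with AAV Best1 GFP; it is called the Nrf2 eye. The contralateral eye, called the control eye, had received AAV Best1 GFP only, so that both eyes carried a virus and GFP. The Best1 promoter drives expression in the RPE. By the methods, the Nrf2 virus had a different capsid from the GFP virus, and the total virus dose was higher in Nrf2 eyes. Capsid and dose therefore cannot be told apart from Nrf2 in these comparisons. There were 7 mice at postnatal day 20 (P20) and 9 other mice at P40, giving 32 libraries in 4 groups. The methods describe fewer *rd1* pairs than the labels at both ages, and at P40 also pairs of CD1 mice, whose number together with that of the *rd1* pairs equals the number labelled. Whether some P40 pairs labelled *rd1* were CD1 cannot be told apart here, so comparisons that use P40 eyes depend on the labels for the strain.

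Hydrogen sulfide is made in cells mainly from cysteine and homocysteine, and at high levels it poisons mitochondrial respiration. In mitochondria, sulfide is oxidized in steps that pass its electrons to ubiquinone and end in sulfite, which is then oxidized to sulfate, while cysteine itself is either formed by transsulfuration from methionine or broken down toward taurine. Nrf2 is the transcription factor that switches on antioxidant and detoxification genes through the antioxidant response element, and the RPE is a tissue with a heavy oxidative load.

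Total counts per library were between 16548332 and 50542797. Counts are given as counts per 1000000 counts (CPM) of the normalized library, and 3 counts, below which a level was treated as at the floor, were worth 0.0566 to 0.182 CPM. The transgene was at 0 to 1098 CPM in control eyes and 1082 to 10440 CPM in Nrf2 eyes. A pair of P20 libraries went against their labels. The control eye of mouse 3 had 1098 CPM of the transgene, against 154.3 CPM for the next highest P20 control eye, and the Nrf2 eye of mouse 4 had 1082 CPM, against 4810 CPM for the next lowest P20 Nrf2 eye. These libraries were also the closest of all pairs, with a squared difference over genes of 8.26 times counting noise, against 49.2 for the next pair. P20 results are therefore given also without mice 3 and 4. Markers of the RPE, such as *Rpe65* and *Rlbp1*, summed to 11380 to 70970 CPM per library, and none of the 11 was at 0 throughout a group. The libraries came from separate sequencing runs that the labels do not assign, and the run and the group cannot be told apart. Library names begin with M for all P20 and with A for all P40 libraries, in both kinds of eye. What the letters stand for is not stated, and a difference between them cannot be told apart from age.

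Promoter windows of 300 bases, from 250 bases before to 50 after a RefSeq start site, were searched for TGACNNNGC, the core of the antioxidant response element, on both strands. Of the 9 genes, 5 had a window (8 windows in all, some of them overlapping): *Sqor*, *Ethe1*, *Mpst*, *Suox*, and *Cbs*. The core was found in 1 of these genes, *Mpst*, and 13.991% of the 27025 genes with a window in the mouse table held it (12.392% of the 32851 windows). The window of *Sqor* is shown because *Sqor* had the largest Nrf2 difference among those with a window, and that of *Mpst* because it holds the core, in capitals, whose first base lies 12 bases before the start site. Both sequences are from RefSeq on GRCm38.p6, read 5′ to 3′ on the plus strand. The window of *Sqor* lies inside the gene as annotated by GENCODE, not at its upstream end.
Sqor, chr2:122771463-122771762, plus strand: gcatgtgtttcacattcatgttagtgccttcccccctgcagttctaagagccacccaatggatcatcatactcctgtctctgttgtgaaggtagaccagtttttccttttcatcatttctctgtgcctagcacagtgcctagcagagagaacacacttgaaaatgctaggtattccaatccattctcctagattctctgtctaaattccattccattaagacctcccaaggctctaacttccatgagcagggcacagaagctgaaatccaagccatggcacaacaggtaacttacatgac
Mpst, chr15:78406551-78406850, plus strand: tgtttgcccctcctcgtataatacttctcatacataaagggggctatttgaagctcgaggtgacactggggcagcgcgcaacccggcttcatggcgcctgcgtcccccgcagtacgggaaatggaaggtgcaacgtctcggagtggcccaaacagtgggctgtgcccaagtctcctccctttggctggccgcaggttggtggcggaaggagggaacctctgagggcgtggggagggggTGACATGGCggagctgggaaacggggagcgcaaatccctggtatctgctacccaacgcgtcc
A match, or none, in these letters is a description of the window and not a measured binding site.

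The position of each gene is given on GRCm38, as are overlaps that could split its reads. *Sqor* (ENSMUSG00000005803) lies on chr2:122765237-122809569 on the plus strand and overlaps no gene. *Tst* (ENSMUSG00000044986, chr15:78399556-78405907, minus strand) and *Mpst* (ENSMUSG00000071711, chr15:78406416-78414013, plus strand) are neighbours that point away from each other, with 508 bases between them. *Ethe1* (ENSMUSG00000064254, chr7:24587543-24608925, plus strand) overlaps *Zfp575* on the minus strand and shares 4.75% of its 31-base words with it, so reads in that overlap could be assigned to either gene. *Mocos* (ENSMUSG00000039616) lies on chr18:24653691-24701575 on the plus strand, and *Cdo1* (ENSMUSG00000033022) on chr18:46713193-46728395 on the minus strand. *Suox* (ENSMUSG00000049858, chr10:128669894-128674073), *Cbs* (ENSMUSG00000024039, chr17:31608894-31637238), and *Cth* (ENSMUSG00000028179, chr3:157894248-157925077) are on the minus strand. Of the words of *Cbs*, 5.73% occur in other genes.

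Divided by exon length, levels among the 9 genes spanned a wide range in control eyes. *Cdo1*, which turns cysteine into cysteine sulfinate on the way to taurine, was highest in P20 control eyes, at 77.2 ± 49.7 CPM per kb (SD, n = 7). *Tst*, *Suox*, and *Ethe1* followed with 11.5 ± 4.23, 9.29 ± 3.21, and 6.60 ± 1.57 CPM per kb. *Sqor* and *Mocos* came next with 3.65 ± 1.005 and 3.504 ± 1.19 CPM per kb. Neighbours in this order from *Cdo1* to *Mocos* overlapped in range. *Cth* stood below *Mocos* and above *Mpst* with no overlap, at 1.76 ± 0.499 CPM per kb, and *Mpst* and *Cbs* were lowest at 0.661 ± 0.260 and 0.202 ± 0.133 CPM per kb, with overlapping ranges. In P40 control eyes *Cdo1*, at 97.25 ± 50.3 CPM per kb (n = 9), stood clear of *Ethe1*, the next, at 9.49 ± 3.85 CPM per kb, and *Cbs* stood clear below *Mpst*. In Nrf2 eyes *Sqor* was second after *Cdo1* at both ages, at 17.8 ± 7.73 CPM per kb at P20 and 23.96 ± 9.49 at P40, with *Mocos* at 15.7 ± 5.78 and 13.3 ± 5.34 CPM per kb, above *Suox* at both ages. The ranges of *Sqor* and of the gene after it overlapped at both ages.

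**Figure D1:**
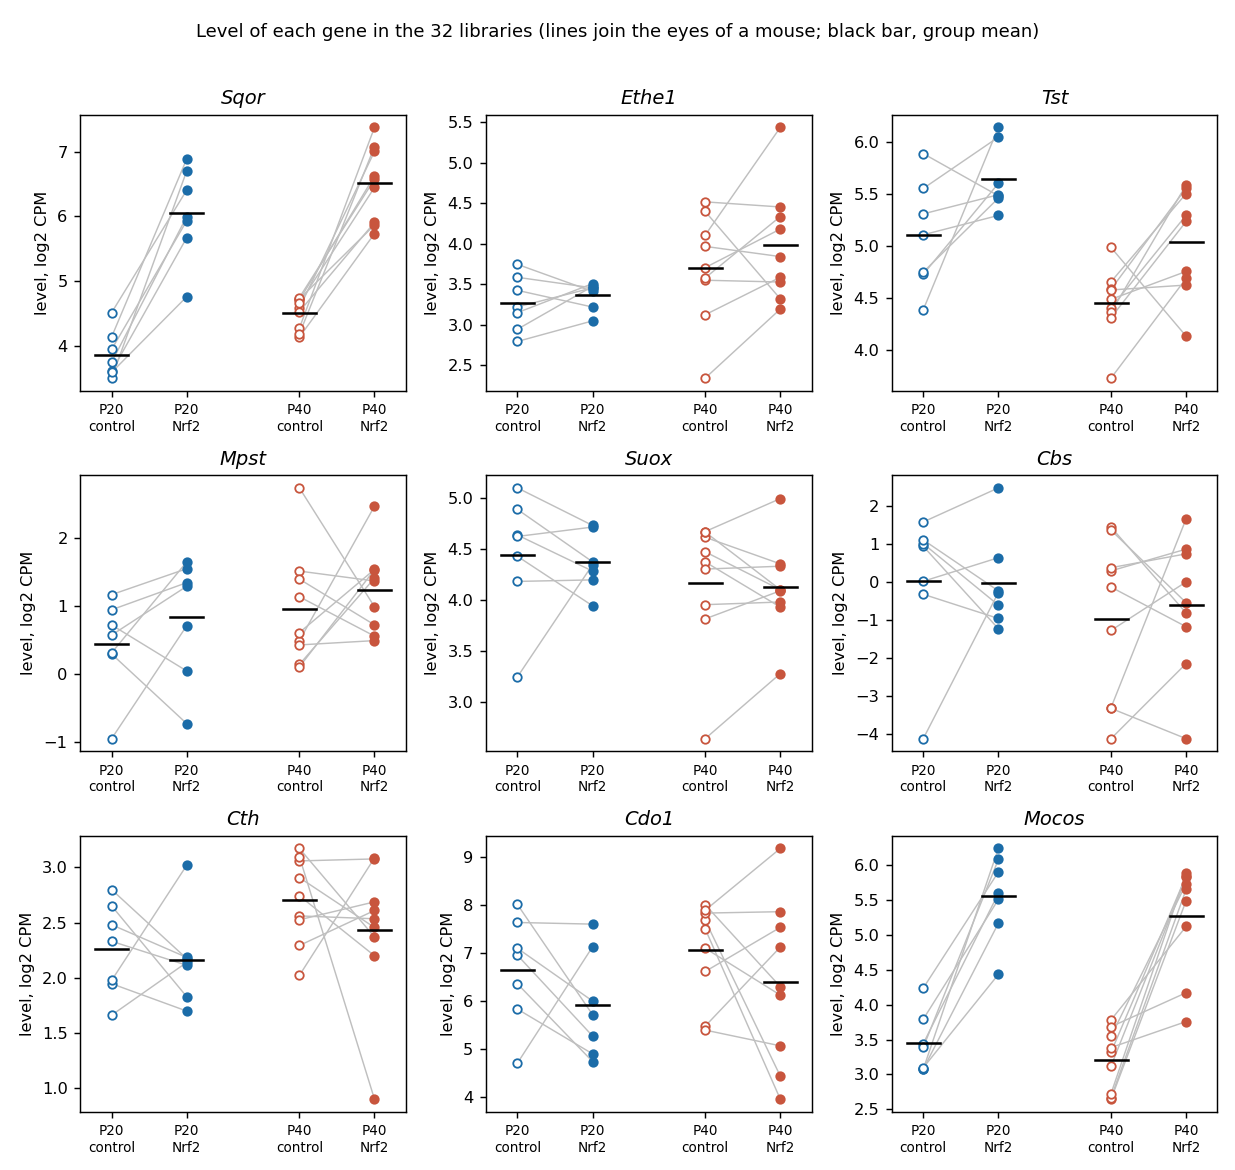
Level of each of the 9 genes in the 32 libraries, as log2 CPM (a prior count of 2 keeps libraries at 0 on the scale); open points are control eyes, filled points Nrf2 eyes, gray lines join the eyes of a mouse, and black bars are group means. *Sqor* shows no overlap between Nrf2 and control eyes at either age, *Mocos* none at P20, and the other 7 genes overlap throughout.

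*Sqor* encodes sulfide quinone oxidoreductase, the mitochondrial enzyme that takes the first step of sulfide oxidation and hands electrons to ubiquinone. In P20 control eyes its level had a minimum of 11.3, a median of 13.4, and a maximum of 22.8 CPM, and in P20 Nrf2 eyes these were 27.0, 63.8, and 118.2 CPM. The groups did not overlap, and the 2 libraries nearest to each other were the pair that went against their labels, the control eye of mouse 3 and the Nrf2 eye of mouse 4. Mean levels were 14.9 ± 4.10 and 72.8 ± 31.55 CPM (n = 7), and the fitted log2 fold change was 2.16 with a standard error (SE) of 0.215. Without mice 3 and 4, control eyes reached no more than 17.6 CPM and Nrf2 eyes no less than 50.9 CPM, and the log2 fold change was 2.397. At P40 the minimum, median, and maximum were 17.5, 23.9, and 26.8 CPM in control eyes and 53.1, 95.1, and 165.7 CPM in Nrf2 eyes. Again no Nrf2 eye was as low as any control eye. Means at P40 were 22.9 ± 3.67 and 97.8 ± 38.8 CPM (n = 9), and the log2 fold change was 1.97 (SE 0.221). The Nrf2 eye had more *Sqor* in 7 of 7 mice at P20, by 1.17 to 3.20 on the log2 scale, and in 9 of 9 at P40, by 1.14 to 3.10.

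Markers of other cells moved with the same contrast, and their part in these values was not tested. The 6 cone markers, which include cone opsins, summed to a median of 298.2 CPM in control eyes (37.2 to 889) and 29.0 CPM in Nrf2 eyes (15.98 to 83.9) at P20, and to 711.8 (258.9 to 2022) and 34.8 CPM (27.1 to 234.8) at P40. Of these, 2 were lower past the threshold at P20 and 6 at P40, with none at 0 throughout a group. The 8 rod markers had medians of 99.5 (20.3 to 423.2) and 10.7 CPM (6.04 to 80.8) at P20 and 105.3 (69.4 to 512.2) and 14.97 CPM (6.05 to 60.1) at P40. Of these, 0 and 2 were lower past the threshold. At P40, 4 of 7 macrophage markers were higher. Their sum had a median of 151.5 CPM in control (66.5 to 453.8) and 248.9 CPM in Nrf2 eyes (112.3 to 356.2). At the same age 5 of 11 RPE markers were lower, with medians of 36470 (11380 to 68740) and 19600 CPM (13250 to 70970). RNA came from eyecups after the retina was removed, and how much retina stayed on each eyecup is not given. In bulk RNA, fewer cells of a type, less RNA per cell, and, for rods and cones, less retina left attached cannot be told apart.

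*Mocos* encodes the molybdenum cofactor sulfurase, which puts a sulfur, taken from cysteine, onto the molybdenum cofactor of aldehyde oxidases and of xanthine dehydrogenase. At P20 its minimum, median, and maximum were 8.38, 10.4, and 18.8 CPM in control eyes and 21.5, 48.2, and 75.4 CPM in Nrf2 eyes. The P20 groups did not overlap, and the highest control eye and the lowest Nrf2 eye were again those of mice 3 and 4. Means were 11.3 ± 3.84 and 50.5 ± 18.6 CPM, and the log2 fold change was 2.09 (SE 0.217), or 2.31 without mice 3 and 4. At P40 control eyes had 6.20, 9.92, and 13.7 CPM and Nrf2 eyes 13.5, 50.2, and 58.9 CPM, in the same order. The P40 groups overlapped slightly, since the Nrf2 eye of mouse 6, at 13.5 CPM, was below the control eye of mouse 1, at 13.7 CPM. The log2 fold change at P40 was 2.06 (SE 0.333), between means of 9.57 ± 2.84 and 43.0 ± 17.2 CPM. The Nrf2 eye had more *Mocos* in 7 of 7 and in 9 of 9 mice, by 1.34 to 3.16 on the log2 scale at P20 and 0.37 to 3.16 at P40. Over the 32 libraries the log2 levels of *Mocos* and *Sqor* had a Pearson r of 0.896, a description over libraries that share the Nrf2 contrast.

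The sulfide oxidation steps after *Sqor* differed less between the eyes. *Ethe1* encodes the persulfide dioxygenase that turns glutathione persulfide into sulfite. In P20 control eyes it had a minimum, median, and maximum of 6.87, 9.26, and 13.4 CPM, and P20 Nrf2 eyes, at 8.21, 10.9, and 11.3 CPM, lay within that range. The log2 fold change was 0.07 (SE 0.169). At P40 control eyes had 5.005, 12.98, and 22.8 CPM and Nrf2 eyes 9.09, 14.3, and 43.3 CPM, and the difference was 0.25 (SE 0.236). The groups overlapped at both ages, and the Nrf2 eye had the higher level in 4 of 7 and 5 of 9 mice.

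*Tst*, thiosulfate sulfurtransferase or rhodanese, moves a sulfur atom between thiosulfate, glutathione, and other acceptors. In P20 control eyes it had a minimum, median, and maximum of 20.9, 34.4, and 59.2 CPM, and in Nrf2 eyes 39.2, 45.0, and 70.5 CPM. At P40 these were 13.2, 22.4, and 31.6 CPM and 17.5, 37.6, and 48.0 CPM. The groups overlapped at both ages, yet the Nrf2 eye had more *Tst* in 6 of 7 mice at P20 and in 8 of 9 at P40. Log2 fold changes were 0.51 (SE 0.231) and 0.56 (SE 0.208), not past the threshold of the fit at either age. The exceptions were P20 mouse 5 and P40 mouse 6. Leaving out 1 mouse, *Tst* was past the threshold in 0 of 7 fits at P20 and 1 of 9 at P40. That fit left out P40 mouse 6, the mouse of opposite sign, which by itself raises the value (0.72).

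*Mpst*, which makes persulfides and sulfide from mercaptopyruvate, was a low-count gene with 10 to 144 counts per library. Its P20 means were 1.42 ± 0.558 CPM in control and 1.99 ± 0.970 CPM in Nrf2 eyes, and its P40 means 2.26 ± 1.76 and 2.51 ± 1.26 CPM. The log2 fold changes of 0.40 (SE 0.407) and 0.25 (SE 0.419) were no larger than about their SE, and the Nrf2 eye had the higher level in 5 of 7 and 5 of 9 mice. *Suox* encodes sulfite oxidase, which makes sulfate and needs the molybdenum cofactor, though not the sulfur that *Mocos* adds. P20 levels of *Suox* were 23.2 ± 8.02 CPM in control and 20.98 ± 4.09 CPM in Nrf2 eyes, P40 levels were 19.3 ± 6.39 and 18.25 ± 5.99 CPM, and the log2 fold changes were −0.12 (SE 0.198) and −0.08 (SE 0.164). The intervals of 2 SE around these were −0.51 to 0.28 and −0.41 to 0.25, the narrowest of the 7 other genes at P40.

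The transsulfuration enzymes, which build cysteine from homocysteine, were expressed at low levels. *Cbs*, cystathionine beta-synthase, had no count in 3 libraries, namely P20 control eye 6, P40 control eye 8, and P40 Nrf2 eye 5, and 5.53 CPM in P20 Nrf2 eye 2. It was also at the floor in P40 control eyes 5 and 9, with 1 and 2 counts. Its means were 1.51 ± 0.993 and 1.43 ± 1.85 CPM in P20 control and Nrf2 eyes and 0.992 ± 1.03 and 1.02 ± 0.996 CPM in P40 ones, and its log2 fold changes of −0.30 (SE 0.830) and 0.12 (SE 0.875) left a wide interval. *Cth*, cystathionine gamma-lyase, was steadier, at 4.92 ± 1.39 and 4.62 ± 1.60 CPM in P20 control and Nrf2 eyes and 6.69 ± 1.73 and 5.76 ± 2.00 CPM in P40 ones. Its log2 fold changes were −0.14 (SE 0.269) and −0.30 (SE 0.312), with the Nrf2 eye higher in 2 of 7 and 4 of 9 mice.

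*Cdo1*, cysteine dioxygenase, varied most from eye to eye among the genes with high counts. In P20 control eyes it had a minimum, median, and maximum of 26.2, 124.7, and 259.5 CPM, and in P20 Nrf2 eyes 26.8, 52.8, and 195.4 CPM. *Cdo1* was lower in the Nrf2 eye in 6 of 7 mice at P20, and the exception was mouse 4, whose Nrf2 eye had 140.8 CPM and control eye 26.2 CPM. The P20 log2 fold change was −0.91 (SE 0.526). It was past the threshold in 1 of 7 fits without 1 mouse, that without mouse 4, the exception (−1.34). Without mice 3 and 4 it was −1.38 (SE 0.310) and not past the threshold. At P40 control eyes had 42.3, 182.4, and 258.7 CPM and Nrf2 eyes 15.5, 79.2, and 583 CPM, a 37.5-fold span among the latter. The P40 difference was −0.63 (SE 0.575), with *Cdo1* lower in the Nrf2 eye in 5 of 9 mice.

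**Figure D2:**
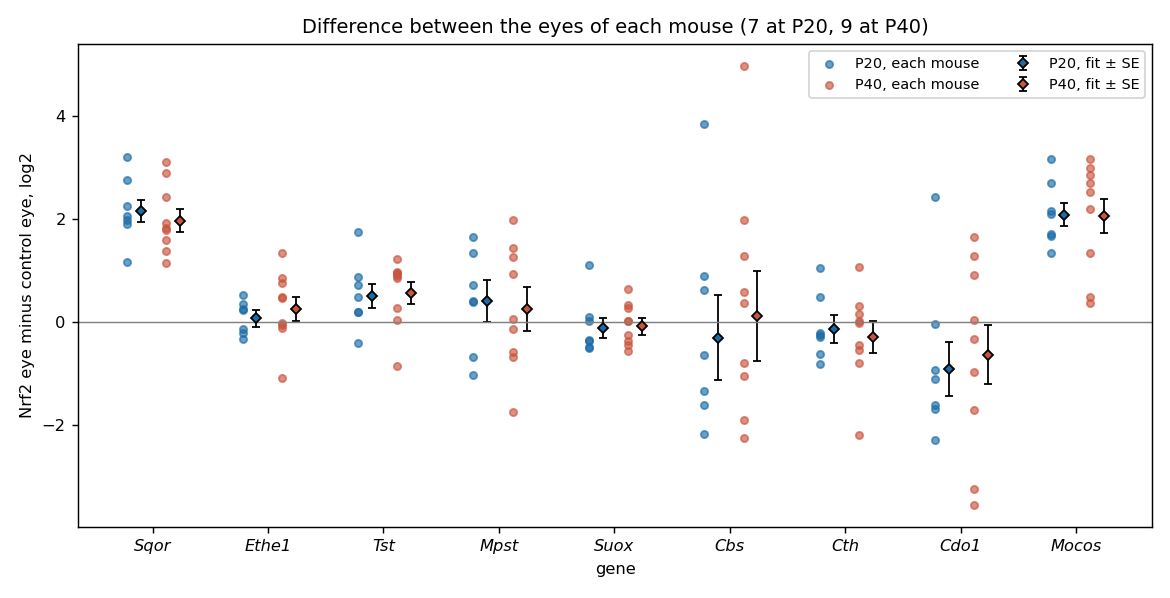
Difference between the Nrf2 eye and the control eye of each mouse for each gene, in log2 CPM; circles are mice (7 at P20, 9 at P40), and diamonds with bars are the fitted log2 fold change ± SE. Every mouse lies above 0 for *Sqor* and *Mocos*, whereas the other 7 genes have mice on both sides of 0 at both ages.

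In the fit across all genes, 2 of the 9 genes, *Sqor* and *Mocos*, were past the threshold at P20 and the same 2 at P40, both higher. Of all genes tested, 3.41% were past it at P20 (2.93% higher, 0.485% lower, a split that depended on P20 mouse 4, without which 986 genes were higher and 1013 lower) and 4.57% at P40 (3.33% higher, 1.23% lower). Groups without overlap, with Nrf2 eyes higher, were found for 1.26% of genes at P20 and 1.17% at P40, and every pair was higher for 5.59% and 3.55%. Without P20 mice 3 and 4 the same 2 of 9 were past the threshold at P20, and the values of *Ethe1*, *Tst*, *Mpst*, *Suox*, *Cbs*, and *Cth* were 0.02, 0.63, 0.41, 0.03, −0.21, and −0.14 on the log2 scale. Because these contrasts chose the genes, nothing is read from these counts. The median log2 fold change of the 9 genes was 0.07 at P20, where that of all genes was −0.04, and 0.25 at P40, where it was −0.03.

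Whether the Nrf2 difference changed with age was fitted over all 32 libraries. The change from P20 to P40 was −0.19 (SE 0.321) for *Sqor* and −0.02 (SE 0.437) for *Mocos*, with intervals of 2 SE from −0.83 to 0.45 and from −0.89 to 0.85. None of the 9 genes passed (edgeR's quasi-likelihood test with Benjamini-Hochberg adjustment, adjusted *P* = 0.9996 for each, and an unadjusted *P* under 0.05 for 0 of 9). Across the genome 0.00557% of genes passed, which is 1 gene of 17959, with 429 at an unadjusted *P* under 0.05 and 12 past the threshold by DESeq2. Without P20 mice 3 and 4 the values were −0.46 (SE 0.351) for *Sqor* and −0.28 (SE 0.495) for *Mocos*, and again none of the 9 passed.

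The ages are different mice with differently lettered library names and, as far as the labels can tell, 1 strain. Between them, *Sqor* was also higher at P40 than at P20 in control eyes, which were given no Nrf2 virus. Its mean of 22.9 ± 3.67 CPM at P40 (n = 9) compared with 14.9 ± 4.10 CPM at P20 (n = 7), a log2 fold change of 0.66 (SE 0.171, edgeR adjusted *P* = 0.0286). The groups overlapped, since the P20 eyes of mouse 3, at 22.8 CPM, and mouse 7, at 17.56 CPM, were above the lowest P40 eye, at 17.51 CPM. Without mice 3 and 4 the value was 0.74 with an adjusted *P* of 0.0568 by edgeR, a larger difference that was no longer past the threshold. Leaving out 1 eye at a time, 10 of 16 fits kept it, and log2 values were 0.58 to 0.78. The P40 control eyes whose loss ended the call were those of mice 3 and 5, and the P20 ones those of mice 1, 2, 4, and 5.

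*Tst* was lower at P40 in control eyes, at 22.4 ± 4.92 CPM against 36.3 ± 13.4 CPM for P20, which is −0.66 on the log2 scale (SE 0.209, edgeR adjusted *P* = 0.0441). The groups overlapped, 6 of 16 fits that left out 1 eye kept the call (−0.76 to −0.51), and without mice 3 and 4 the value was again −0.66 but the edgeR adjusted *P* was 0.115. The eyes whose loss ended the call of *Tst* were those of all P20 mice except mouse 6 and of P40 mice 2, 3, 5, and 7.

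These 2 genes were 2 of 9, where 14.8% of all genes passed in control eyes (8.34% higher and 6.42% lower). The other 7 did not pass by edgeR. *Mpst* had 0.69 (SE 0.420, adjusted *P* = 0.248), *Ethe1* 0.57 (SE 0.271, adjusted *P* = 0.145), and *Cth* 0.47 (SE 0.230, adjusted *P* = 0.151). *Ethe1* passed when the control eye of P40 mouse 1 was left out (0.68, edgeR adjusted *P* = 0.0379). *Cdo1* was at 0.37, *Mocos* at −0.21, *Suox* at −0.24, and *Cbs* at −0.57, with adjusted *P* values from edgeR of 0.529 to 0.653. Beside these values, 3 of 5 fibroblast markers were lower at P40 in control eyes (summed level 81.8 to 579 CPM at P20 and 76.3 to 423.6 CPM at P40), and the median sum of RPE markers was 20090 CPM in P20 and 36470 CPM in P40 control eyes, where 1 of the 11 was higher and 2 lower. The median transgene level in control eyes was 47.2 CPM at P20 (0.924 to 1098) and 0.383 CPM at P40 (0 to 99.2). The part of these cells and of the transgene in the differences with age was not tested.

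In Nrf2 eyes 0 of the 9 genes differed with age by edgeR, where 0.502% of all genes did (0.167% higher, 0.334% lower) and 4326 genes had an unadjusted *P* under 0.05. DESeq2 and limma voom also called 0 of the 9. The signs of *Sqor* and *Tst* were those of control eyes, at 0.45 (SE 0.299, edgeR adjusted *P* = 0.350) and −0.54 (SE 0.213, edgeR adjusted *P* = 0.138). *Ethe1* had 0.83 (SE 0.296, edgeR adjusted *P* = 0.119), with an unadjusted *P* of 0.0123, and *Cdo1* 1.00 (SE 0.681, edgeR adjusted *P* = 0.356). The unadjusted *P* was under 0.05 for *Ethe1* and *Tst*.

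**Figure D3:**
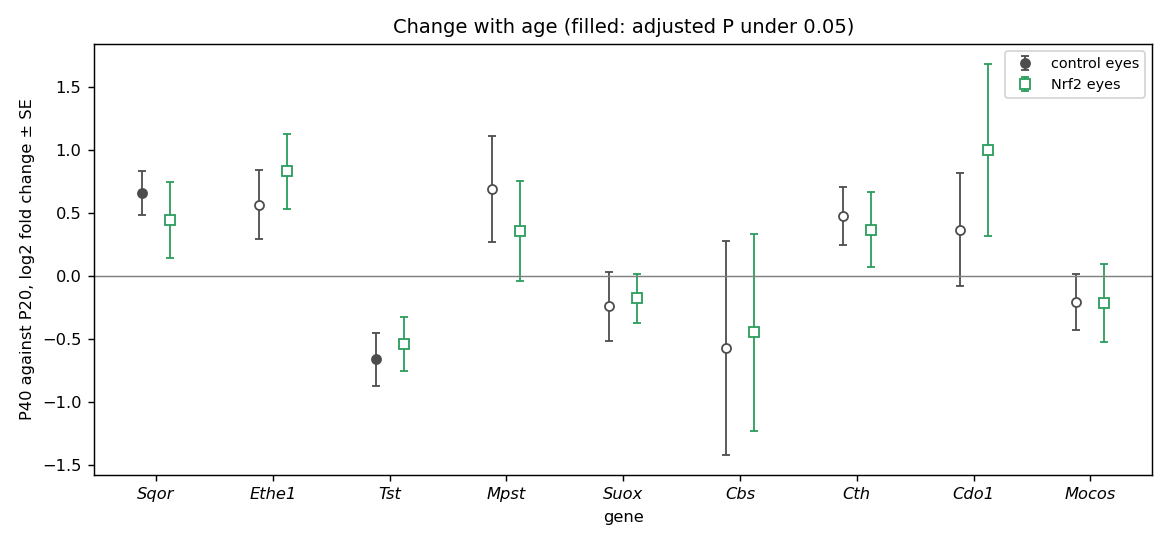
Log2 fold change from P20 to P40 of each gene in control eyes (circles) and in Nrf2 eyes (squares), with SE bars; filled symbols passed an edgeR adjusted *P* of 0.05. In control eyes only *Sqor*, at 0.66, and *Tst*, at −0.66, are filled, and neither stays filled without P20 mice 3 and 4; no square is filled.

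The genes whose log2 levels over the 32 libraries were most like those of each gene were taken from 11794 genes with a mean log2 CPM of at least 2. All these correlations describe libraries that share depth, amplification, and the Nrf2 contrast. For *Sqor* they were *Nqo1*, a quinone reductase (Pearson r = 0.976), the tubulin gene *Tuba4a* (0.972), and *Ephx1*, an epoxide hydrolase (0.965). For *Mocos* they were *Txnrd1*, the cytosolic thioredoxin reductase (0.966), *Gclc*, the catalytic subunit of the enzyme that starts glutathione synthesis (0.964), and the transporter gene *Abcc4* (0.961). *Cdo1* had neighbours as close, which were *Anxa1* (0.974), *Capg* (0.972), and the tight junction gene *Cldn3* (0.967). *Ethe1* was most like the proteasome subunit gene *Psmc5* (0.941), *Bcap31* (0.924), and *Myl12b* (0.916). Genes like *Suox* included *Mab21l1* (0.891) and *Armcx3* (0.889). For *Cbs* they included *Fbln2* (0.827) and *Zic5* (0.800), and for *Tst* they were *Npr3* (0.824), *Efna5* (0.816), and *Hmbox1* (0.795). *Mpst*, with *Rab5c* (0.804), *Uxs1* (0.780), and *Smco4* (0.774), and *Cth*, with *Hspa14* (0.665), *Ska2* (0.660), and *Arv1* (0.651), had the least close neighbours. Among the 9 genes themselves, *Mocos* and *Tst* had an r of 0.640 and *Suox* and *Cbs* 0.564, whereas *Sqor* and *Ethe1*, adjacent steps of sulfide oxidation, had 0.227 and the neighbours *Tst* and *Mpst* 0.156.

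Other genes of sulfur metabolism were taken from a list of 73 in 7 roles. At P20, 3 of the 68 tested were higher in Nrf2 eyes and 0 lower (4.41%, against 3.41% of all genes), and at P40 3 of 69 were higher and 0 lower (4.35%, against 4.57%). Medians were −0.02 and −0.04, where those of all genes were −0.04 and −0.03. Without P20 mice 3 and 4, 2 of 68 were higher at P20, since *Mtap* no longer passed (edgeR adjusted *P* = 0.0585), and of all genes 759 of 16567 passed in that fit. The counts depended on the setting. DESeq2 gave 10 higher and 1 lower at P20 (1951 of all 16303 genes passed) and 5 and 1 at P40 (1380 of 16686). Leaving out 1 mouse gave 1 to 7 higher and 0 to 4 lower at P20, the most without mouse 4, where 1999 of all 16330 genes passed.

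The largest of these increases was that of 1 gene, *Aox1*, in the role of molybdenum cofactor and molybdoenzymes. *Aox1* encodes an aldehyde oxidase, an enzyme whose cofactor takes its sulfur from the *Mocos* product. It had a minimum, median, and maximum of 0.624, 1.46, and 9.01 CPM in P20 control eyes and 7.86, 42.7, and 56.7 CPM in P20 Nrf2 eyes. The P20 groups overlapped, and the log2 fold change was 4.29 (SE 0.560, edgeR adjusted *P* = 0.0102), or 5.09 without mice 3 and 4 (edgeR adjusted *P* = 0.00216). At P40 control eyes had 0.822, 1.39, and 2.43 CPM and Nrf2 eyes 11.6, 44.1, and 60.8 CPM. These P40 groups stood apart, by a fitted log2 difference of 4.57 (SE 0.393, edgeR adjusted *P* = 4.05e-05). *Mocs1*, which acts at the start of molybdenum cofactor synthesis, rose at P20 from 19.99 ± 3.62 to 37.1 ± 8.70 CPM (log2 0.84, SE 0.151, edgeR adjusted *P* = 0.0237). At P40 *Mocs1* had a log2 fold change of 0.91 and was not past the threshold (edgeR adjusted *P* = 0.192). *Xdh*, the other main target of the *Mocos* product, had −1.25 at P20 and −0.05 at P40 and did not pass at either age, nor did the remaining molybdoenzyme and cofactor genes.

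Outside this role, *Mtap*, which salvages methylthioadenosine for methionine, rose at both ages, from 30.3 ± 3.89 to 51.2 ± 12.5 CPM at P20 (log2 0.70, SE 0.125, edgeR adjusted *P* = 0.0243) and from 35.1 ± 4.45 to 53.9 ± 13.1 CPM at P40 (log2 0.55, SE 0.130, edgeR adjusted *P* = 0.0301). The calls of *Mtap* and *Mocs1* depended on the mice included, though their values moved little. Leaving out 1 mouse kept *Mtap* in 2 of 7 fits at P20 (log2 0.62 to 0.77) and in 2 of 9 at P40 (0.50 to 0.63). *Mocs1* was kept in 2 of 7 at P20 (0.75 to 0.92), whereas *Aox1* was kept in all 7 and all 9. Over all genes, 111 to 1999 passed in the P20 fits without 1 mouse, against 556 in the main fit. *Slc26a1*, a transporter of sulfate and other anions that overlaps *Idua* on the other strand, rose at P40 from 0.652 ± 0.313 to 4.51 ± 2.05 CPM (log2 2.79, SE 0.311, edgeR adjusted *P* = 0.000276) and passed in 9 of 9 fits without 1 mouse. At P20 its value of 1.79 was not past the threshold (edgeR adjusted *P* = 0.159). The lists for taurine and cysteine sulfinate, persulfide and iron-sulfur clusters, rhodanese-domain enzymes, and ubiquinone synthesis, the acceptor of the electrons from sulfide, had 0 genes past the threshold at either age in the main fit. Over all genes the unadjusted *P* was under 0.05 for 2964 at P20 and 2173 at P40.

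**Figure D4:**
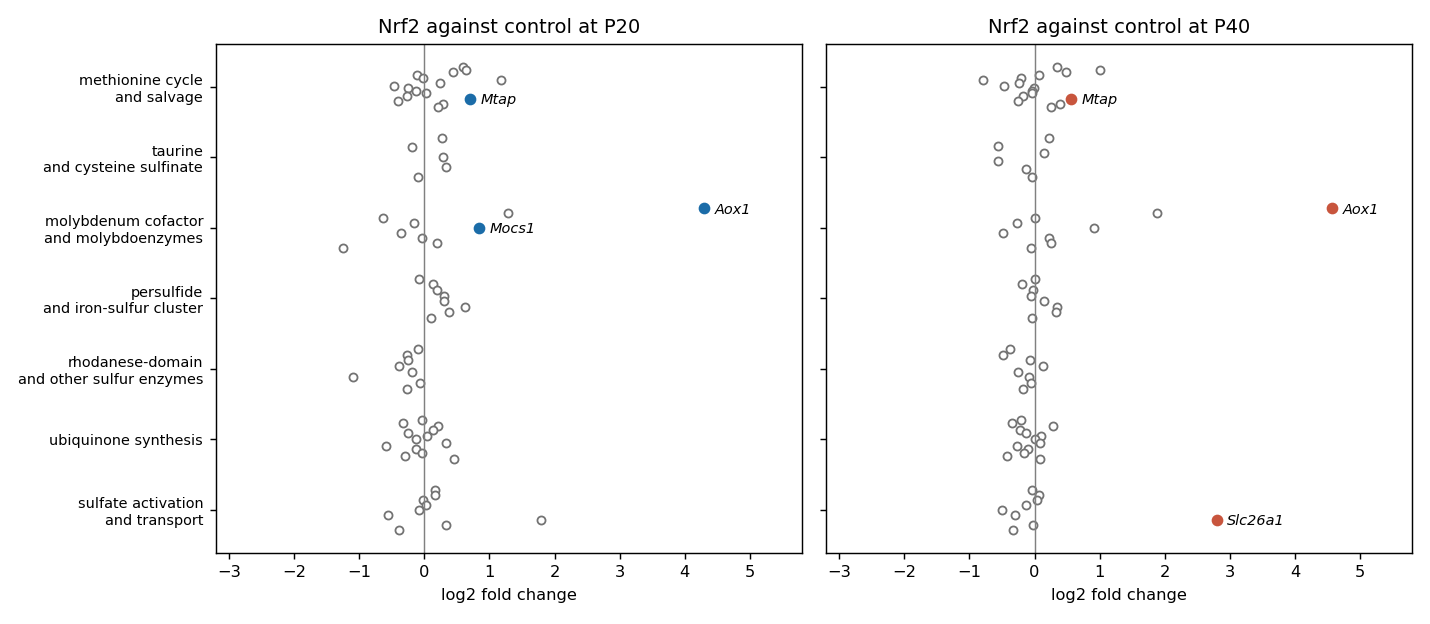
Log2 fold change, Nrf2 against control eyes, of the other sulfur metabolism genes by role at P20 (left) and P40 (right); each point is a gene, and filled, named points passed an edgeR adjusted *P* of 0.05. *Aox1* lies farthest to the right at both ages, at 4.29 and 4.57, and most other genes lie near 0.

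With age in control eyes, 8 of 69 list genes were higher at P40 and 2 lower (14.5%, against 14.8% of all genes), and without P20 mice 3 and 4 0 passed by edgeR. In that fit without mice 3 and 4, 158 of all genes passed. DESeq2 gave 18 higher and 5 lower (4330 of all 16832 genes passed), and limma voom 4 and 4 (1907 of 16832). Leaving out 1 eye gave 1 to 13 higher and 0 to 7 lower, where 473 to 4273 of all genes passed. The persulfide and iron-sulfur cluster genes *Iscu* (log2 0.91, edgeR adjusted *P* = 0.0242) and *Isca2* (0.82, 0.0370) and the ubiquinone genes *Coq3* (0.52, 0.0493), *Coq7* (1.02, 0.0335), and *Coq10b* (0.72, 0.0354) rose. *Gnmt*, a glycine methyltransferase of the methionine cycle, rose from 1.80 ± 0.625 to 4.70 ± 2.29 CPM (1.42, edgeR adjusted *P* = 0.0328). *Fmo1*, a monooxygenase that can form taurine, rose from 26.2 ± 5.62 to 45.5 ± 11.6 CPM (0.83, edgeR adjusted *P* = 0.0193) and was kept in 16 of 16 fits without 1 eye, and *Mocs2*, of molybdenum cofactor synthesis, had 0.60 (edgeR adjusted *P* = 0.0494). *Ado*, which oxidizes cysteamine to hypotaurine, fell from 29.1 ± 1.62 to 18.5 ± 5.68 CPM (−0.62, edgeR adjusted *P* = 0.0291), and the sulfate transporter gene *Slc26a2* fell from 18.5 ± 2.30 to 10.2 ± 5.53 CPM (−0.83, edgeR adjusted *P* = 0.0494). Of the 16 fits without 1 eye, *Ado* was kept in 11, *Iscu* in 14, *Gnmt*, *Coq7*, and *Coq10b* in 7 each, *Isca2* in 6, *Mocs2* in 5, and *Coq3* and *Slc26a2* in 3 each. In Nrf2 eyes 1 of 69 passed with age, *Gnmt* (1.80, SE 0.351, edgeR adjusted *P* = 0.0319; 1.45%, against 0.502% of all genes). *Gnmt* was kept there in 9 of 16 fits without 1 eye, and without mice 3 and 4 it had an edgeR adjusted *P* of 0.0866. DESeq2 gave 4 higher and 3 lower in Nrf2 eyes, where 1595 of all 16745 genes passed. In the test of whether the Nrf2 effect changed with age, 0 of 69 list genes passed by edgeR.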

How the data were processed

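Estimated counts per gene, deposited by the authors as whole numbers without normalization, were used for 32 RPE libraries. The submitters' processing notes name FastQC and Salmon 0.9.1. The methods describe alignment to mm10 with STAR, counting with featureCounts, and, in parallel, Salmon estimates brought into DESeq2 with tximport; which of these the table holds was not stated. Estimation shares ambiguous reads among genes, and amplification before sequencing adds spread to low counts. RNA came from eyecups with the retina removed. Total counts were 16548332 to 50542797 per library, and floors cover counting error only. Of 34453 rows, 34401 had a symbol, 4268 had no count, and 1 was the human transgene. Coordinates are from GENCODE M21 (GRCm38), promoters from RefSeq.

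Genes were kept by filterByExpr, normalized by TMM, and tested with the quasi-likelihood test of edgeR 4.0.16 (limma 3.58.1, R 4.3.3), with Benjamini-Hochberg adjustment over all genes tested and a threshold of 0.05. Nrf2 and control eyes were compared within mouse, with mouse as a block, as was the difference between ages. Ages were compared without a block, since the mice differ. Log2 CPM used a prior count of 2. Pairing comes from the labels, which number the individual, and from the treatment protocol, in which each mouse gave both eyes. The mean correlation between the eyes of a mouse, as deviations from group means, was 0.0213 (P20) and 0.0990 (P40), and over 0.1 in 3 of 7 and 3 of 9 mice. Nothing says that mice of a group were from separate litters, and *P* values measure the spread between these mice.

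The 9 genes, the lists, and the tests were chosen with earlier results of these data known. Named are all 9 genes, list genes past the threshold (at most 4 per role and comparison), and the 3 genes most like each of the 9, of which 2 are not reported here; *Xdh* and the genes given below the threshold were singled out after their values were seen. Alternatives were DESeq2 1.42.0, limma voom, RLE, no filter, at least 10 counts in every library, no block, leaving out each mouse or eye, and leaving out P20 mice 3 and 4; those for the list genes were added after seeing the data. The fits were tested on simulated data with 200 genes changed 4-fold. edgeR recovered 66% at P20 (16116 genes), 71% at P40 (16459 genes), 76% with age in control eyes (16624 genes), 73% in Nrf2 eyes (16496 genes), and 51.5% for the difference between ages (17830 genes).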

Additional observations from a re-analysis of the deposited data

Results flagged for a closer look

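Within each of the 4 groups, the CPM values of each of the 9 genes were checked for 1 library far from the rest. The measure was the gap to the next library over the range, and 7 of 36 checks were positive. A chance rate of about 1 in 20 cannot be set against this count. All 7 were high values on the CPM scale, where high values stand out more than on the log2 scale. *Ethe1* was at 43.3 CPM in the Nrf2 eye of P40 mouse 8, with the next library at 21.9 CPM. In the same eye *Cdo1* was at 583 CPM, and the next was at 233.9 CPM. *Mpst* was at 6.61 CPM in the control eye of P40 mouse 8, with the next at 2.80 CPM, and at 5.48 CPM in the Nrf2 eye of P40 mouse 3, with the next at 2.85 CPM. *Suox* was at 31.9 CPM in the Nrf2 eye of P40 mouse 4, with the next at 20.4 CPM. *Cbs* and *Cth* stood apart in the same library, the Nrf2 eye of P20 mouse 2, at 5.53 CPM (next 1.51 CPM) and 8.06 CPM (next 4.49 CPM). None of the 7 values belonged to *Sqor*, *Mocos*, or *Tst*. The check looks for 1 library, so it can miss a pair of libraries that lie apart together. *Mocos* was at 13.5 and 17.95 CPM in the Nrf2 eyes of P40 mice 6 and 8, with the next at 34.7 CPM.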

How the results depend on the processing

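*Sqor* and *Mocos* were chosen for being higher with Nrf2 in these libraries, so that they were past the threshold under each of the 14 alternatives at P20 and the 15 at P40 is a description and no support. Leaving out each mouse gave log2 values of 2.00 to 2.30 and 1.83 to 2.08 for *Sqor* and 1.92 to 2.19 and 1.92 to 2.26 for *Mocos*.

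With age in control eyes, the 2 calls depended on the setting: limma voom kept 1 (*Sqor*), and the fit without a filter and that without P20 mice 3 and 4 kept 0, while leaving out 1 eye gave 0 to 3. Over the alternatives the edgeR, DESeq2, or voom adjusted *P* was 0.00241 to 0.0659 for *Sqor* and 0.0237 to 0.115 for *Tst*. The cause was not tested.

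Genes past the threshold at P20 numbered 556 (477 higher and 79 lower), against 1951 with DESeq2 and 348 without a filter, and 111 to 1999 leaving out 1 mouse, of which mice 1, 3, 4, 5, 6, and 7 each moved the count by over 1.5 times. The excess of higher genes at P20 depended on the setting, with 986 higher and 1013 lower without mouse 4, 502 and 257 without mice 3 and 4, and 1244 and 707 with DESeq2. At P40 they numbered 762, against 1380 with DESeq2 and 521 to 997 leaving out 1 mouse. With age in control eyes they numbered 2483 (1403 higher and 1080 lower), against 4330 with DESeq2, 914 without a filter, 158 without P20 mice 3 and 4, and 473 to 4273 leaving out 1 eye; the split was 691 higher and 1216 lower with voom, 295 and 619 without a filter, and 35 and 123 without mice 3 and 4. In Nrf2 eyes they numbered 84, against 1595 with DESeq2, 31 without a filter, 20 without P20 mice 3 and 4, and 21 to 190 leaving out 1 eye. For the difference of the Nrf2 effect the count was 1, against 12 with DESeq2. Requiring 10 counts in each library left out *Cbs* and tested 8 of the 9 genes.

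Without the replicate block, which pairs the eyes of a mouse, 1093 genes were past the threshold at P20 and 716 at P40, and of the 9 genes the block changed no call. No paired analysis was possible for the ages because different mice were taken at P20 and P40.

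Low counts limit *Cbs* and *Mpst*, whose libraries held 0 to 126 and 10 to 144 counts. The simulated fits recovered no more than 76% of 4-fold changes.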
